A study of Mus musculus with 8 samples.

Results

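Genes of the cardiac and striated muscle sarcomere were followed in vascular smooth muscle cells (VSMCs) of the mouse, the contractile cells of the vessel wall taken into primary culture, with and without knockdown of the SoxD family transcription factor Sox6. The 39 genes were listed by name, from myosins, actins and troponins to Z-disc, calcium handling and natriuretic peptide genes, and were kept where at least 4 of the 8 libraries held 10 or more reads. All 39 met that condition, out of 30660 gene identifiers in the deposited table. All 39 also reached 10 reads in each of the 4 controls, while 9 fell short of it in at least 1 knockdown library. Bulk RNA sequencing of total RNA gave 4 control libraries, labelled WT for genotype and treatment, and 4 libraries labelled Sox6 knockdown. The sources used here name no vessel of origin, mouse strain, age, passage or time after knockdown. Whether replicate libraries stem from different cultures or different animals is not stated in the labels, so each p-value covers the spread among these libraries alone, and that spread may be technical.

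In striated muscle, myosin thick filaments pull on actin thin filaments that are anchored at the Z-disc, and calcium switches the thin filament on through the troponin complex. Heart and skeletal muscle use tissue-specific isoforms of these proteins, some of which mark the atria, the ventricles or slow skeletal fibres. Smooth muscle contracts without troponin and without sarcomeres, so most of these genes are not part of the usual contractile machinery of a VSMC. Desmin is an exception, an intermediate filament protein found in many vascular muscle cells as well as in heart and skeletal muscle.

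Total counts ran from 37604102 to 49393224 per library. Sox6 itself held 6, 10, 6 and 4 reads in the controls and 2, 4, 0 and 0 in the knockdowns (two-sided exact permutation test on total-scaled CPM, p = 0.0286, which is the lowest value 4 and 4 libraries allow). It did not pass the filter on low counts, and edgeR without the filter gave -2.13 with an adjusted p of 0.0774, above the threshold of 0.05. Of the smooth muscle markers, Acta2 stood at 1240 ± 136 CPM (counts per 1000000 reads, SD, n = 4) in controls, while Cnn1 was at 2.23 ± 0.487 and Myh11 at 5.90 ± 0.987 CPM. Tagln, another defining marker, held only 2 to 8 reads per control library, and 67.9% of its exon length overlaps other genes. For the genes described here 2 libraries stood apart. Knockdown replicate 4 held the highest level among the knockdowns for 28 of the 39 genes, and knockdown replicate 1 lacked a set of fast skeletal muscle transcripts present in the other 3 knockdowns.

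The striated muscle genes were lower in the knockdown almost throughout. Of the 39 genes, 36 fell, 1 rose (the skeletal actin Acta1) and 2 did not pass the threshold (Cmya5 and Txlnb), at an edgeR adjusted p under 0.05. Over all 16150 tested genes, 51.5% were called, 26% as lower and 25.4% as higher. Scaling by total counts, which shifted the median of all genes by 0.10 on the log2 scale, gave 18.9% lower and 36.7% higher, and the same counts of 36 and 1 for the 39 genes. Where genes had to reach 1 CPM in 4 or more libraries, 31 of the 34 genes tested fell, where 29.2% of all genes tested that way did. The 4 controls alone can meet this filter, as for Xirp1 (1.06 to 1.75 CPM in controls, 0.0907 to 0.579 CPM in knockdowns). Such genes pass only through the group where they are high, so this count is no separate support. The median log2 fold change of the 39 genes was -2.29, with quartiles of -2.57 and -1.86, against 0.02 over all tested genes. By more than 2 fold 33 of the 39 genes fell, and by more than 4 fold 27 did, where 4.93% and 1.48% of all tested genes did. In 36 of the 39 genes every knockdown library lay below every control, as in 24% of all tested genes, and for none did every knockdown lie above every control, as in 22.8% of all tested genes. The summed reads of the 39 genes made up 0.0465% to 0.0658% of all counts in the controls and 0.00793% to 0.0212% in the knockdowns. In bulk RNA, fewer cells of a type and less RNA per cell cannot be told apart.

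**Figure D1:**
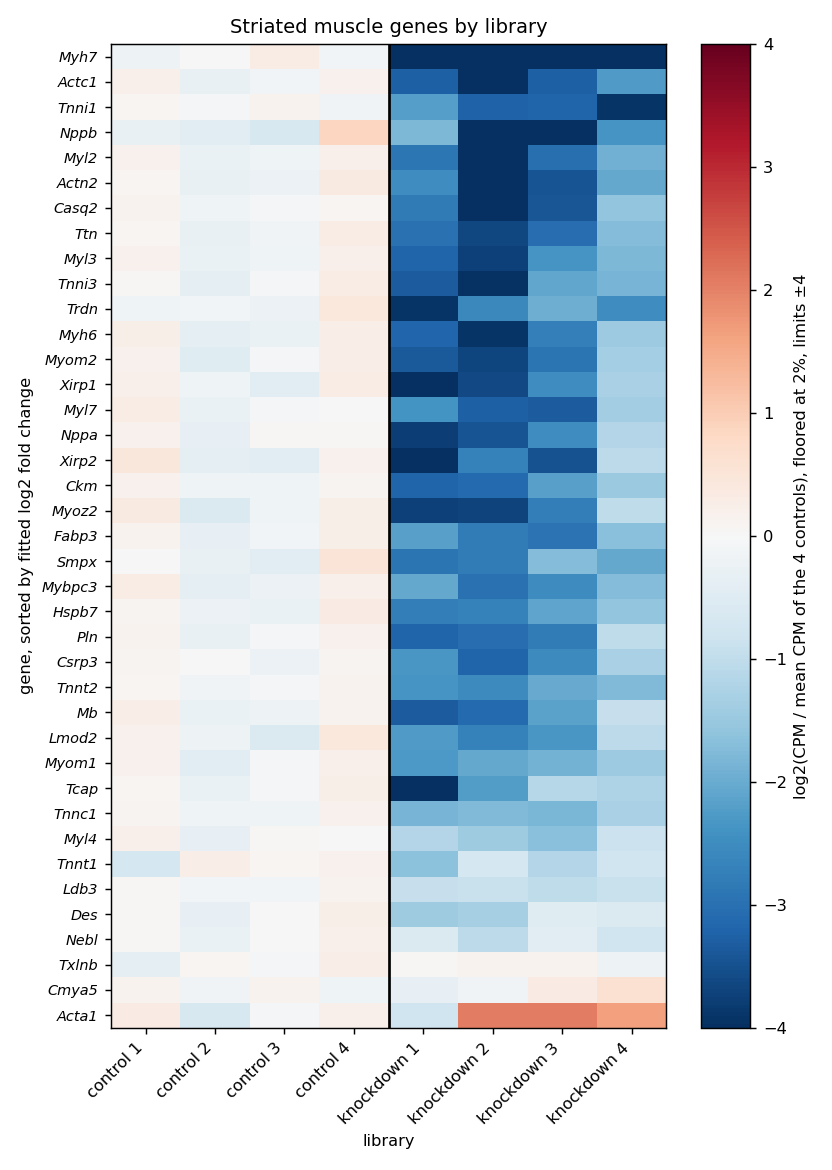
Level of each striated muscle gene (rows, sorted by fitted fold change) in each of the 8 libraries (columns), as log2 of its CPM over the mean CPM of the 4 controls, with levels under 2% drawn at 2%. Control columns are near white, knockdown columns 1 to 3 are dark blue for most genes, knockdown 4 is paler, and Acta1 in the bottom row is red in knockdowns 2 to 4 and pale blue in knockdown 1.

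Of the myosin heavy chains, Myh6 (ENSMUSG00000040752, mm10 chromosome 14, 54941921 to 54966927), which encodes alpha myosin of the adult mouse heart, was the most abundant of the 39 genes in reads. The controls held 8169, 5490, 6380 and 7770 Myh6 reads and the knockdowns 792, 551, 950 and 2864. The groups did not overlap, and knockdown 4 stood at 3.36 times the mean of the other 3 knockdowns in CPM. Myh6 averaged 162 ± 36.1 CPM in controls and 28.0 ± 21.5 CPM after knockdown, a log2 fold change of -2.53 with a standard error (SE) of 0.36 (edgeR adjusted p = 4.38e-05). Without knockdown 4 the Myh6 log2 fold change was -3.21.

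The neighbouring gene Myh7 (ENSMUSG00000053093, chromosome 14, 54970684 to 54994626) encodes beta myosin, which the mouse uses in the fetal ventricle and in slow skeletal fibres. It held 385, 448, 595 and 385 reads in controls and 28, 6, 3 and 22 in knockdowns. Its level fell from 10.4 ± 1.60 to 0.321 ± 0.270 CPM (-5.0 ± 0.31, adjusted p = 1e-08), the change with rank 2 from the lowest among all tested genes. Unlike Myh6, Myh7 was highest in knockdown 1 rather than in knockdown 4. Of the 50-base windows of the Myh7 transcript, 22.2% also occur in Myh6, so reads from these stretches could have been assigned to either gene, and 13.3% of Myh7 exon length overlaps genes on the other strand.

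The 250 bases before the RefSeq start of each gene (build GRCm38.p6, minus strand) are shown because these adjacent paralogs changed by different factors, and the capitals mark the MCAT motif (CATTCC on either strand), a site bound by TEAD factors. The Myh6 window is chr14:54966608-54966857 and the Myh7 window is chr14:54994627-54994876. The Myh6 window lies inside the gene span given above, which comes from the GENCODE annotation. Distances therefore hold for the RefSeq start used.
Myh6: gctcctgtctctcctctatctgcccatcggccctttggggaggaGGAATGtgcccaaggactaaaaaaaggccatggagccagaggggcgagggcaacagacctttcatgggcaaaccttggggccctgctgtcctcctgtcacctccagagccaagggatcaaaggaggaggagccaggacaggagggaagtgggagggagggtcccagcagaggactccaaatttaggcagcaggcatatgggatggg
Myh7: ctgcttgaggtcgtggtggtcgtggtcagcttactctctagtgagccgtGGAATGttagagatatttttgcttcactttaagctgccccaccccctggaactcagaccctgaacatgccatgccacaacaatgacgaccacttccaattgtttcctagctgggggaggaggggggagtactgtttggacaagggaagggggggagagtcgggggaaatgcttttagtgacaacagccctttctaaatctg
Both windows hold 1 MCAT match, which starts 206 bases before the start of Myh6 and 201 bases before that of Myh7. The motif occurs in 12.6% of all 32851 promoter windows of this length. It occurs in 9 of the 45 windows of the 34 member genes with an entry, in 9 genes. The letters AACAAT, a core that SOX proteins can bind, occurred on either strand in 9.42% of all windows. They occurred in 4 of the 45 member windows, from 3 of the 34 genes (Csrp3, Myh7 and Myl3). A match is a description of these letters and not a bound site.

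All 4 myosin light chain genes fell. Myl2, the ventricular regulatory light chain, held 1555, 1169, 1366 and 1505 reads in controls and 194, 75, 158 and 413 in knockdowns (32.5 ± 5.37 to 4.61 ± 2.93 CPM, -2.82 ± 0.31, adjusted p = 3.18e-06). Myl3, the ventricular and slow skeletal essential light chain, fell from 24.7 ± 4.04 to 4.12 ± 2.38 CPM (-2.59). Myl7, the atrial regulatory light chain, held 123 to 177 reads in controls and 28, 18, 13 and 62 in knockdowns (-2.35 ± 0.32). Myl4, the atrial and embryonic essential light chain, fell least of the group, from 3.87 ± 0.576 to 1.63 ± 0.386 CPM (-1.24 ± 0.18, adjusted p = 4.9e-05). Knockdown 4 was the highest knockdown library for all 4 genes.

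The sarcomeric actins moved in opposite directions on average. Actc1 (chromosome 2), the cardiac actin, held 2526, 1826, 2231 and 2331 reads in controls and 238, 128, 210 and 521 in knockdowns, with no overlap. It fell from 51.7 ± 8.48 to 6.00 ± 3.46 CPM (-3.10 ± 0.27, edgeR adjusted p = 3.69e-07). Acta1 (chromosome 8), the skeletal actin, held 46, 24, 38 and 40 reads in controls and 22, 182, 139 and 130 in knockdowns. Knockdown 1 was below every control, and the other 3 knockdowns were above every control. Acta1 rose on average from 0.859 ± 0.236 to 2.57 ± 1.44 CPM (1.58 ± 0.43, adjusted p = 0.00668), a call that was lost with limma-voom (1.30, adjusted p = 0.0822), which called 25.6% of all tested genes higher. Knockdowns 2 to 4, the libraries with the high Acta1 values, also held reads of fast skeletal muscle genes such as Myh8 (107, 74 and 67) and of the stratified epithelium keratin Krt4 (82, 74 and 92), which knockdown 1 (0 and 2) and the controls (0 to 2 and 0) nearly lacked. The part of RNA from other cells in the Acta1 fold change and in the Actc1 to Acta1 ratio was not tested. No 50-base window of the Actc1 transcript occurs in another gene, and 2.22% of the Acta1 windows do.

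Both actin promoters are shown because the genes encode near-identical proteins and had average fold changes of opposite sign. Acta1 was below every control in knockdown 1, and its call was lost with limma-voom. Capitals mark CArG boxes, the sites bound by serum response factor, and in Acta1 also an MCAT motif. The windows end at the base before the RefSeq start (GRCm38.p6, minus strand), at chr2:114052876-114053125 for Actc1 and chr8:123894776-123895025 for Acta1. The Actc1 window lies inside the GENCODE span of the gene (114047282 to 114053548), so distances hold for the RefSeq start used.
Actc1: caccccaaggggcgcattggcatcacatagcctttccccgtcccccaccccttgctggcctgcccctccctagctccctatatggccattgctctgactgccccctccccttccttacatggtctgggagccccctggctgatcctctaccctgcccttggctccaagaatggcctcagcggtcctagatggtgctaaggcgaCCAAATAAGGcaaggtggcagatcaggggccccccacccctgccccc
Acta1: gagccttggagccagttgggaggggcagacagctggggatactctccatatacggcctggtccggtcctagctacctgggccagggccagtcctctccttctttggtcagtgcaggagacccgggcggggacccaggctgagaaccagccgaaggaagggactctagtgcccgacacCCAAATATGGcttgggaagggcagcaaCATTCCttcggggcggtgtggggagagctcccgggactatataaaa
A CArG box starts 47 bases before the start of Actc1 and 73 bases before that of Acta1. CArG boxes were found in 1.47% of all windows and in 8 of the 45 windows of the 34 member genes with an entry. The 7 genes with a match were Acta1, Actc1, Ldb3, Myl3, Myl7, Myom1 and Nebl.

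All 5 troponin genes fell. Tnnt2, cardiac troponin T, which ties the complex to tropomyosin, held 2654, 2372, 2644 and 2626 reads in controls and 516, 522, 573 and 852 in knockdowns (59.6 ± 5.24 to 13.5 ± 3.31 CPM, -2.14 ± 0.13, edgeR adjusted p = 6.77e-09). Tnni3, the inhibitory subunit of the adult heart, held 799, 620, 818 and 890 reads in controls and 79, 60, 169 and 243 in knockdowns (-2.57 ± 0.31). Tnni1, the slow skeletal and fetal cardiac inhibitory subunit, held 210, 194, 244 and 171 reads in controls and 45, 26, 20 and 15 in knockdowns (-3.01 ± 0.25, adjusted p = 1.99e-07). For Tnni1 knockdown 4 was the lowest of the knockdowns, whereas for Tnni3 it was the highest. Tnnc1, the calcium-binding subunit of heart and slow fibres, fell from 15.5 ± 2.00 to 4.84 ± 0.954 CPM (-1.67 ± 0.13). Tnnt1, slow skeletal troponin T, was rare, with 15, 30, 28 and 26 reads in controls and 8, 18, 10 and 16 in knockdowns, so that reads overlapped between groups while CPM did not (0.352 to 0.686 and 0.181 to 0.349 CPM). Its call (-1.01 ± 0.33, adjusted p = 0.02) was lost when control 2 was left out (-0.91, adjusted p = 0.0609), when control 4 was (-0.95 and 0.0546) and when knockdown 1 was (-0.86 and 0.0611).

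All 4 thick filament and M-line genes fell, by log2 fold changes from -1.88 to -2.67. Ttn, which encodes the giant spring protein titin, held 1212, 949, 1134 and 1300 reads in controls and 149, 111, 127 and 385 in knockdowns (26.7 ± 4.75 to 4.18 ± 2.57 CPM, -2.67 ± 0.27, edgeR adjusted p = 1.69e-06). Mybpc3, cardiac myosin-binding protein C, fell from 20.02 ± 4.43 to 4.21 ± 1.52 CPM (-2.25). The M-line crosslinkers Myom1 (-1.88) and Myom2 (-2.5) also fell. Myom2 in knockdown 4 was 3.83 times the mean of the other knockdowns, and its log2 fold change without that library was -3.30.

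Of 10 Z-disc and associated genes, 9 fell and 1 did not pass. Actn2, the muscle alpha-actinin that crosslinks thin filaments, fell from 11.1 ± 2.38 to 1.61 ± 0.918 CPM (-2.79 ± 0.29, edgeR adjusted p = 1.68e-06). Myoz2 (-2.31), Csrp3 (-2.15) and Tcap (-1.83), which bind at or near the Z-disc, and the adhesion-site proteins Xirp1 (-2.44) and Xirp2 (-2.33) fell too. Without knockdown 4 the log2 fold changes were -3.34 for Myoz2, -3.23 for Xirp1 and -3.34 for Xirp2. Smaller decreases were found for Ldb3 (-0.92 ± 0.09), a scaffold that binds actinin, for desmin (-0.89 ± 0.19) and for nebulette, Nebl (-0.69 ± 0.16). Des held 368, 289, 398 and 390 reads in controls and 139, 172, 235 and 269 in knockdowns, so the groups lay close together without overlap. Ldb3 was nearly uniform within the knockdowns, at 5.12 ± 0.189 CPM after 9.74 ± 0.905 CPM in controls. Cmya5, an anchoring protein of the costamere region, did not pass, with 109, 92, 119 and 83 reads in controls and 81, 108, 114 and 172 in knockdowns (0.16 ± 0.20, adjusted p = 0.518). Exons of Cmya5 overlap genes on the other strand over 21.7% of their length.

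Lmod2, a leiomodin that sets thin filament length, fell from 1.53 ± 0.451 to 0.400 ± 0.232 CPM (-1.92). The 3 genes of calcium handling fell, with Casq2, the calcium store protein of the sarcoplasmic reticulum, at 272, 222, 259 and 244 reads in controls and 36, 7, 21 and 94 in knockdowns (-2.74 ± 0.41, edgeR adjusted p = 6.29e-05). Trdn, which anchors calsequestrin at the release channel, fell by 2.57 on the log2 scale. Pln, the inhibitor of the calcium pump SERCA2, held 159, 120, 149 and 150 reads in controls and 16, 21, 19 and 80 in knockdowns (-2.18 ± 0.36). Leaving out knockdown 4 gave -3.57 for Casq2 and -3.0 for Pln. Exons of Pln overlap genes on the other strand over 64.7% of their length.

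The energy and oxygen genes Ckm (muscle creatine kinase, -2.31), Mb (myoglobin, -2.04) and Fabp3 (heart fatty acid binding protein, -2.29) fell together. Myoglobin held 1098, 777, 882 and 940 reads in controls and 94, 128, 192 and 545 in knockdowns, and its log2 fold change was -2.78 without knockdown 4. Overlap with other genes covers 31.9% of Mb exons, and 29.2% of Fabp3 windows also occur in the pseudogene Fabp3-ps1. The small heat shock protein gene Hspb7 (-2.20) and the small muscle protein gene Smpx (-2.29) fell. Txlnb, a muscle taxilin, held 126, 173, 171 and 183 reads in controls and 171, 215, 164 and 159 in knockdowns and did not pass (0.04 ± 0.14, edgeR adjusted p = 0.842).

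Both natriuretic peptide genes fell. Nppa, whose peptide is made mainly in atria after birth, held 224, 163, 229 and 194 reads in controls and 15, 22, 33 and 101 in knockdowns (4.67 ± 0.659 to 0.924 ± 0.806 CPM, -2.33 ± 0.38, edgeR adjusted p = 0.000139). Without knockdown 4 it was at -3.14. Exons of Nppa overlap a gene on the other strand over 61.5% of their length. Nppb was rare, at 22, 21, 19 and 46 reads in controls and 8, 0, 0 and 6 in knockdowns (-3.0 ± 0.66, adjusted p = 0.00162), and its log2 fold change was -3.80 without knockdown 1 and -3.79 with limma-voom. With 0 reads in knockdowns 2 and 3, counting error alone allowed levels of up to 0.0582 and 0.0766 CPM (3 reads), or 0.116 and 0.153 CPM where both reads of a pair were counted (6 reads).

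**Figure D2:**
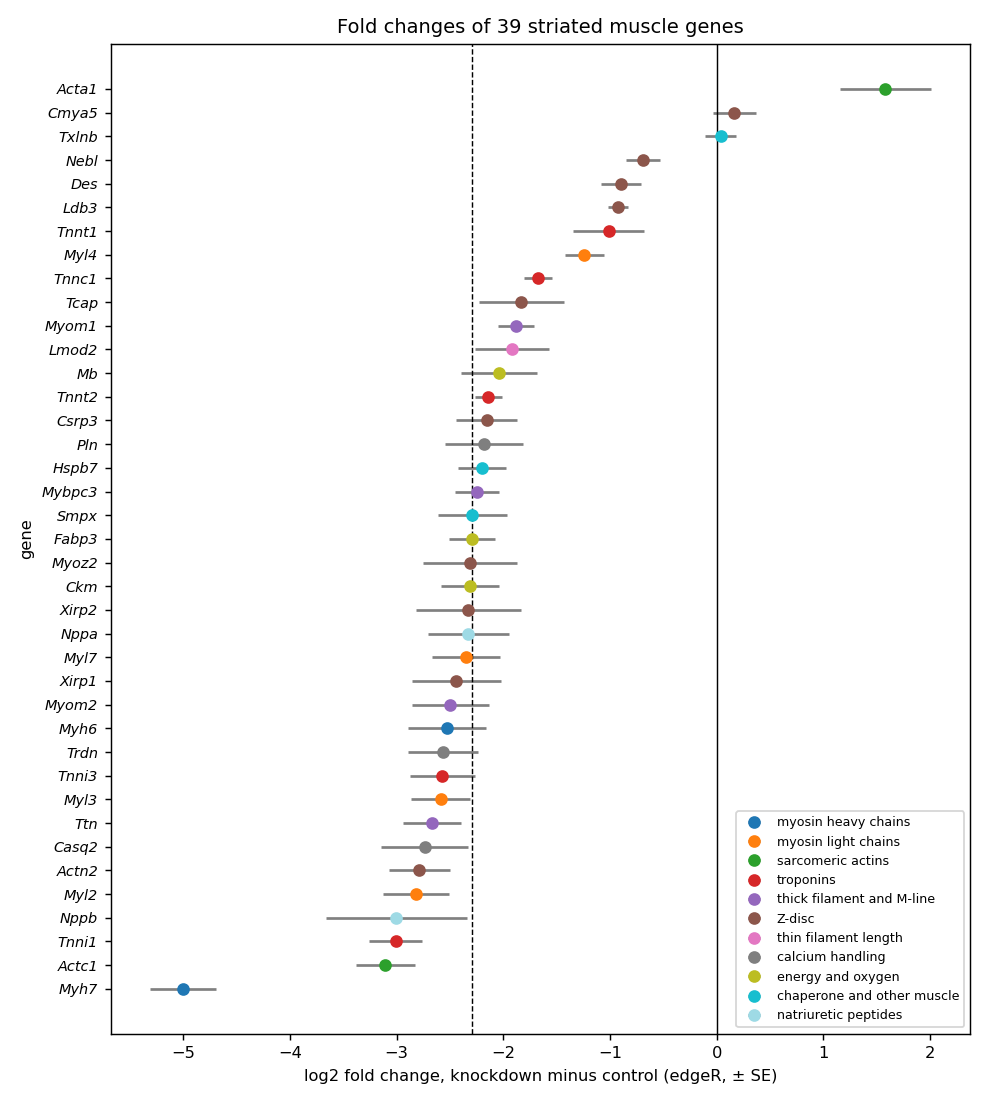
Log2 fold change of each of the 39 genes, knockdown minus control, with its standard error from the edgeR fit, coloured by role, with the median of -2.29 as a dashed line. Most genes lie between -1.8 and -2.8, while Myh7 at -5.0 and a group from Tnnc1 up to Acta1 lie apart.

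Per kilobase of exon, the most abundant members in controls were Fabp3 (32.0 CPM per kb), Actc1 (31.9) and Myh6 (24.0), followed by Myl2 (16.6), Tnnc1 (14.9), Mb (14.4) and Myl3 (12.1). Xirp2 (0.0958 CPM per kb) was the rarest on this scale. For comparison, the smooth muscle actin gene Acta2 stood at 565 CPM per kb. Lower levels were found for the slow skeletal isoforms other than Tnnc1, namely Tnni1 (1.31 CPM per kb), Myh7 (1.21) and Tnnt1 (0.259), and for the skeletal actin Acta1 (0.559).

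The question whether 1 shared factor describes the changes was taken up by comparing the spread of the fold changes with their errors. Of the 39 genes, 26 had a log2 fold change within 2 standard errors of the list's median of -2.29. Actc1, Tnni1 and Myh7 fell by more than that, and Cmya5, Txlnb, Acta1, Nebl, Des, Ldb3, Tnnt1, Myl4, Tnnc1 and Myom1 lay above it. The SD of the 39 log2 fold changes was 1.08, against a median standard error of 0.305. Each standard error includes variation between libraries that most members share. A value within 2 standard errors therefore does not show that 1 factor holds. Read as levels, the median gene stood at 14.8%, 12.2%, 19.3% and 38.2% of its control mean in knockdowns 1 to 4, where the median tested gene stood at 100.4% to 100.8%. Within a single knockdown library the middle 50% of the genes ran from 10.2% to 25.8% in knockdown 1, 7.77% to 22.9% in knockdown 2, 12.7% to 29.0% in knockdown 3 and 29.3% to 49.5% in knockdown 4. The composition of the remaining reads differed from the controls in all 4 knockdowns. Actc1 made up 8.51% to 8.92% of the reads of the 39 genes in controls and 3.27% to 5.59% in knockdowns. Cmya5, Txlnb, Ldb3, Nebl and Des together made up 4.24% to 5.14% in controls and 17.2%, 21.9%, 17.5% and 9.70% in knockdowns 1 to 4. Actc1 had one of the largest decreases and these 5 genes lay above the median. The direction of these shares thus follows from the fold changes above and is no separate support. Myh6 made up 25.5% to 28.8% in controls, 18.6%, 14.1% and 20.4% in knockdowns 1 to 3, and 28.8% in knockdown 4, where its share alone was at the control level among these 3 measures.

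Within groups many of the members varied together. Deviations of log2 CPM from the group means had a median Pearson r of 0.587 over the 741 pairs of genes (median Spearman rho 0.5), computed over 8 libraries that every pair shares, against -0.00025 over all pairs of tested genes. The lower quartile of r was 0.195, and 59% of the pairs had an r over 0.5. Without knockdown 4 the median r was 0.391 and the lower quartile -0.048, with 43% of the pairs over 0.5. These are descriptions and carry no test. Control 4 was the highest control for 23 of the 39 genes and control 2 the lowest for 24, where 23.5% and 26.1% of all tested genes had that order. Knockdown 4 was the highest knockdown for 28 members, where 25% of all tested genes had their highest knockdown value there. Xirp2 (5.20 times), Myoz2 (4.95), Pln (3.95) and Casq2 (3.92) exceeded the mean of the other knockdowns the most in knockdown 4. Tnni1 was at 0.457 times that mean, Txlnb at 0.806, Nebl at 0.917 and Ldb3 at 1.04. Tnni1 and Txlnb deviated against the rest, with a median r to the other members of -0.583 and -0.373.

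Set apart by chamber and fibre type, all groups fell. The 3 atrial genes (Myl7, Myl4 and Nppa) had a median log2 fold change of -2.33 and a summed level of 9.60 to 13.8 CPM in controls and 2.68, 2.23, 2.40 and 5.50 CPM in knockdowns 1 to 4. The 3 ventricular genes (Myl2, Myl3 and Nppb) had a median of -2.82, with sums of 47.8 to 67.2 CPM in controls and 7.23, 3.32, 8.81 and 15.8 CPM in knockdowns. Among the rest, the 5 cardiac isoform genes (Myh6, Actc1, Tnnt2, Tnni3 and Mybpc3) had a median of -2.53, with sums of 251 to 363 CPM in controls and 41.7, 27.0, 52.0 and 98.6 CPM in knockdowns. The 4 genes of slow skeletal isoforms (Tnnt1, Tnni1, Myh7 and Tnnc1, which the heart also uses in part) had a median of -2.34, with sums of 29.2 to 32.2 CPM in controls and 6.08, 5.49, 5.18 and 7.36 CPM in knockdowns. Most of the knockdown sums was Tnnc1, a gene of heart as well as slow fibres, at 4.24, 4.52, 4.34 and 6.26 CPM. Knockdown 4 was more than 1.5 times every other knockdown in the atrial, ventricular and cardiac sums and less than that in the slow skeletal sum.

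Ratios of 2 genes within a library do not depend on scaling and were tested for 8 pairs by exact two-sided permutation tests, with Benjamini-Hochberg adjustment over the pairs. Myh7 to Myh6 had a log2 ratio of -4.41, -3.61, -3.42 and -4.33 in controls and -4.80, -6.41, -8.09 and -6.99 in knockdowns, a difference of -2.63 (permutation p = 0.0286, adjusted 0.0457). The ratio was lower in all 4 knockdowns than in any control. Its knockdown values rest on 28, 6, 3 and 22 Myh7 reads, and 22.2% of the Myh7 windows also occur in Myh6. For Actc1 to Acta1 the log2 ratio was 5.76, 6.22, 5.86 and 5.85 in controls and 3.41, -0.51, 0.59 and 2.00 in knockdowns (difference -4.55, permutation p = 0.0286, adjusted 0.0457). Acta1 reads thus exceeded Actc1 reads in knockdown 2, with 182 against 128, and stayed below them in the other 7 libraries. Tnnt2 to Tnnt1 dropped by 1.17 on the log2 scale, Des to Actc1 was higher by 2.34, and Ttn to Actc1 was higher by 0.45 (permutation p = 0.0286 each, adjusted 0.0457). These 5 ratios separated the groups in all 8 libraries. They share 1 p-value because 0.0286 is the lowest that 4 and 4 libraries allow, whatever the size of the difference. The adjusted value of 0.0457 depends on how many of the 8 chosen pairs reach that limit. The exact permutation p was 0.0571 without any 1 control for Myh7 to Myh6, Actc1 to Acta1 and Ttn to Actc1, and without knockdown 2 for Tnnt2 to Tnnt1.

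Isoform pairs of the same kind did not all separate. Tnni3 to Tnni1 had a log2 ratio of 1.93 ± 0.316 in the control group and 2.25 ± 1.51 after knockdown (p = 0.714 by exact permutation, adjusted 0.714, SD over 4 libraries), with knockdowns 1 and 2 below every control and knockdowns 3 and 4 above every control. The atrial to ventricular ratio Myl7 to Myl2 was at -3.27 ± 0.165 and -2.77 ± 0.623 (difference 0.50, exact permutation p = 0.171, adjusted 0.229). Nppa to Nppb was at 2.97 ± 0.655 and 4.10 ± 2.33 (exact permutation p = 0.371, adjusted 0.424), with knockdown values that rest on 0 to 8 Nppb reads. Each of these 3 results shifted when a single library was left out. The p-values that follow are unadjusted, and 0.0286 is the lowest that 3 and 4 libraries allow. Without knockdown 4 the Tnni3 to Tnni1 difference was -0.25 in place of 0.32, without knockdown 3 that of Myl7 to Myl2 was 0.76 (exact permutation p = 0.0286), and without knockdown 1 that of Nppa to Nppb was 2.21 (exact permutation p = 0.0286).

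**Figure D3:**
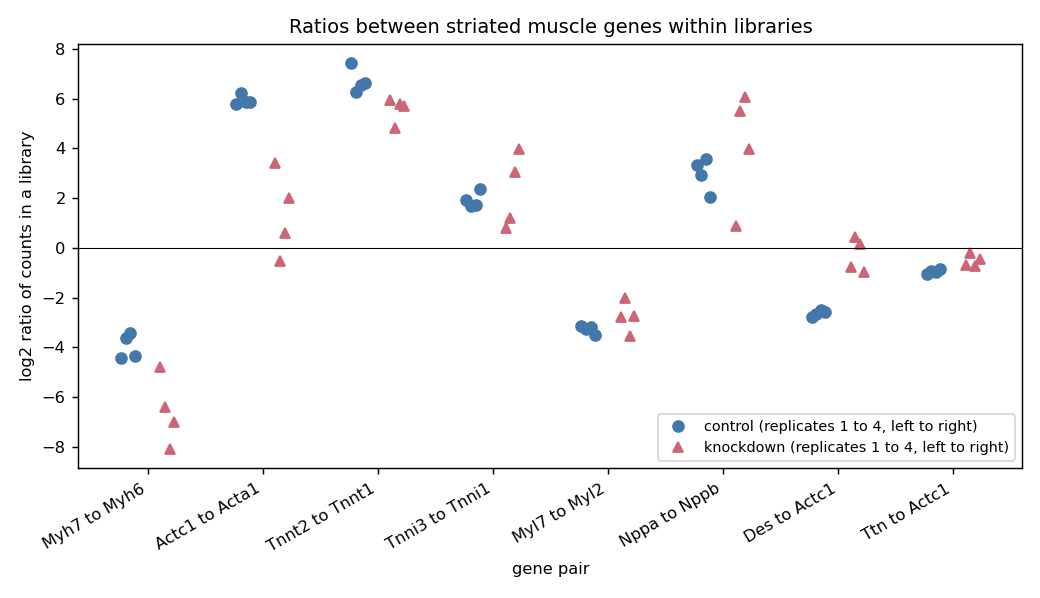
Log2 ratio of the reads of 2 genes within each library for 8 pairs (controls as circles, knockdowns as triangles, replicates 1 to 4 from left to right in each group). Groups do not overlap for Myh7 to Myh6, Actc1 to Acta1, Tnnt2 to Tnnt1, Des to Actc1 and Ttn to Actc1, and they overlap or interleave for the other 3 pairs.

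Other striated muscle genes were taken from lists chosen by function. Of 36 further sarcomere and Z-disc genes 30 were tested, 16 fell (53.3%) and 2 rose (6.67%), with a median log2 fold change of -0.28. The stretch-responsive repeat protein gene Ankrd1 (-2.65), Obsl1, a linker to titin (-2.32), Nrap (-2.21) and the tropomyosin gene Tpm2 (-0.62) had the smallest p-values. Of 17 genes of muscle assembly and turnover 14 were tested, 9 fell (64.3%) and 2 rose (14.3%). Trim55, a muscle ubiquitin ligase of the M-line, held 202 reads over the controls and 10 over the knockdowns (-4.33 ± 0.47, edgeR adjusted p = 3.09e-06). The muscle methyltransferase gene Smyd1 (-1.37) and the cardiac myosin kinase gene Mylk3 (-1.44) also fell, while the atrophy-linked ligase gene Fbxo32 rose (0.95). Of 23 genes of excitation and calcium release 18 were tested, 11 fell (61.1%) and 2 rose (11.1%). The cardiac release channel Ryr2 fell from 6.96 ± 1.28 to 0.942 ± 0.695 CPM (-2.86) and the connexin gene Gjc1 from 2.83 ± 0.227 to 0.526 ± 0.0653 CPM (-2.43), and Cacna1c (-1.18) and the pump gene Atp2a2 (-0.53) fell less.

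Of 26 transcription factors and cofactors of muscle 17 were tested, 9 fell (52.9%) and 4 rose (23.5%), with a median of -0.14. The share that rose was close to the 25.4% of all tested genes. The heart T-box factor Tbx20 fell from 2.82 ± 0.211 to 0.315 ± 0.112 CPM (-3.14 ± 0.23, edgeR adjusted p = 6.83e-08), and the TEAD cofactor Vgll3 fell (-0.83). Tead2 (1.32) and Vgll4 (0.65) rose. By less, Gata4 (0.16, edgeR adjusted p = 0.0412) and Gata6 (0.12, edgeR adjusted p = 0.0149) rose too, with every knockdown above every control. The other TEAD genes were called lower, at -0.49 for Tead1, -0.54 for Tead4 and -0.17 for Tead3. Tead1 was the most abundant TEAD gene, at 262 CPM in controls, against 10.7 CPM for Tead2. Srf (-0.28) and Myocd (-2.61, with 72 reads over the controls and 12 over the knockdowns) were called lower as well. Mef2a (-0.08) and Mef2c (-0.05) were not called. Nkx2-5 and Tbx5, defining factors of heart muscle, did not pass the filter on low counts, at 54 and 59 reads over the controls and 5 and 6 over the knockdowns, all of the latter in knockdown 4. In the edgeR fit without that filter both were called lower, with log2 fold changes of -3.40 for Nkx2-5 (adjusted p = 4.01e-05) and -3.30 for Tbx5 (adjusted p = 2.06e-05).

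Markers of other cell types are set against the 26% of all tested genes called lower and the 25.4% called higher. Of 15 cardiomyocyte markers 10 were tested, 8 fell (80%) and none rose, and none was at 0 in all libraries. Their summed level was 22.9 to 30.2 CPM in controls and 5.35, 4.36, 5.92 and 12.0 CPM in knockdowns 1 to 4, so that knockdown 4 was again the highest. The list shares Myl7 with the genes described here. Of 9 endothelial markers 6 were tested, 5 fell (83.3%) and 1 rose (16.7%), with sums of 10.1 to 12.6 and 5.04 to 6.96 CPM. Of 9 epicardial and mesothelial markers 6 fell (66.7%) and none rose, with sums of 321 to 352 and 192 to 206 CPM, the lowest of them in knockdown 4. Of 9 fibroblast markers tested, 4 fell (44.4%) and 3 rose (33.3%), and the list summed to 4956 to 5298 and 3847 to 4329 CPM. Of 7 macrophage markers 4 were tested, 1 rose and 1 fell, 25% each and so at the share of all genes (sums of 62.0 to 68.5 and 58.8 to 63.7 CPM). Of 10 smooth muscle markers 9 were tested, 4 fell (44.4%) and none rose (1144 to 1435 and 899 to 1142 CPM), desmin among the 4. The part of these cell types in the change of the striated genes was not tested.

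Skeletal muscle markers did not move as 1 group. Of 20 skeletal muscle markers, 4 were absent from the table and only 3 passed the filter on low counts, of which Actn3 rose (1.02, edgeR adjusted p = 3.81e-05). The list summed to 6.21 to 7.73 CPM in controls and 9.34, 13.2, 14.5 and 12.1 CPM in knockdowns. Fast light chain Mylpf held 648 reads over the controls and 663 over the knockdowns (-0.04, not called), fast light chain Myl1 34 and 30, and fast troponin C, Tnnc2, 4 and 2. Mybpc2, the fast myosin-binding protein C, which stands in the list of further sarcomere genes, fell (-1.21, edgeR adjusted p = 0.00466). Other fast and perinatal genes, singled out after their values were seen, held more than 5 reads only in knockdowns 2 to 4, where Acta1 also had its high values. Perinatal myosin Myh8 held 0, 0, 0 and 2 reads in controls and 0, 107, 74 and 67 in knockdowns. Fast myosin Myh1 held 0 reads in every control and 0, 43, 28 and 30 in knockdowns. Fast troponin T, Tnnt3, held 3, 5, 5 and 1 reads in controls and 3, 62, 42 and 41 in knockdowns, and fast troponin I, Tnni2, held 0, 1, 0 and 0, then 2, 32, 30 and 18. In knockdown 1 each of these 4 genes held 0 to 3 reads. Defining factors of skeletal muscle were near 0, with Myod1 at 2 reads in 1 library and Pax7 at 0 to 4 reads per library.

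**Figure D4:**
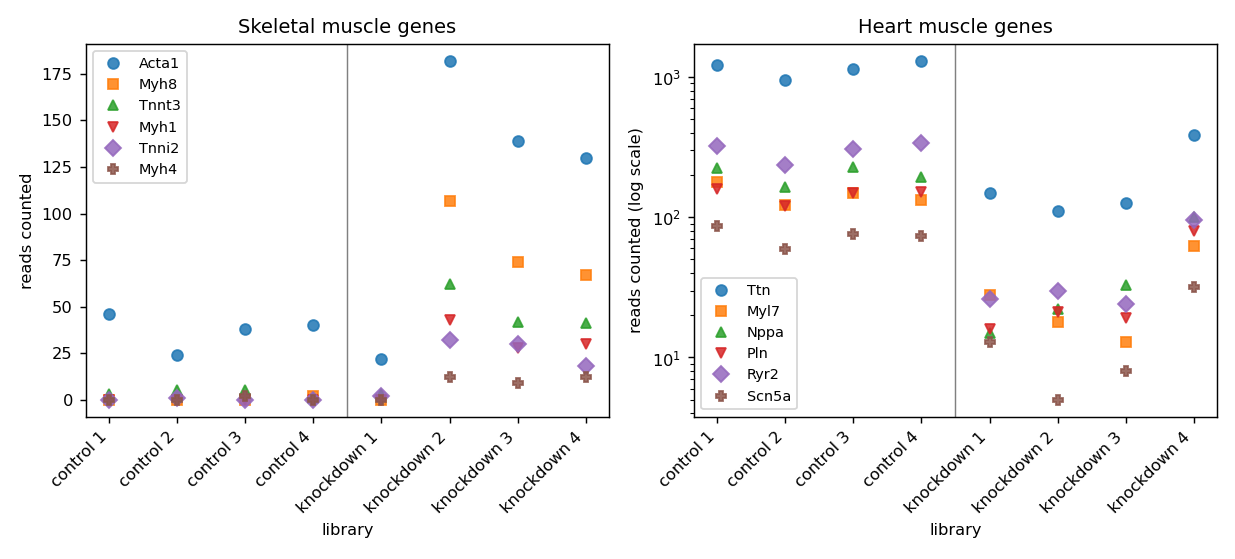
Reads counted per library for skeletal muscle genes (left, linear axis) and heart muscle genes (right, log axis), not scaled for depth. The skeletal genes other than Acta1 are at 0 to 5 reads in all controls and knockdown 1 and at 9 to 107 in knockdowns 2 to 4, while the heart genes are lower in every knockdown than in any control and highest among the knockdowns in knockdown 4.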

How the data were processed

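The deposited table held counts of reads per Ensembl gene, which per the file headers and values are raw whole numbers, without any scaling. Per the submitters' processing notes the genome build was mm10 and DESeq2 was used. The sources used here do not name the aligner, the counting tool or its strand setting, so reads of overlapping genes on opposite strands cannot be told apart. Between 72.0% and 74.2% of counts from 1 to 40 were even, as when both reads of a pair are counted. Symbols, positions and exon overlaps came from GENCODE M21 of the same build (30008 of 30660 identifiers had a symbol), and promoters from RefSeq (GRCm38.p6), which had an entry for 34 of the 39 genes.

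Tests used edgeR 4.0.16 in R 4.3.3: filterByExpr with a minimum count of 10 (16150 genes kept), TMM scaling, quasi-likelihood test over all 8 libraries, Benjamini-Hochberg adjustment over all tested genes and a threshold of 0.05. CPM used TMM-scaled library sizes, errors are SD (n = 4), and the SE of a log2 fold change was its size over the square root of F. Ratios had 0.5 added to each count. The fit was checked on simulated data. Chi-square over degrees of freedom was 6.15 to 17.6 between libraries of a group, so none were duplicates. Correlations of deviations between same-numbered libraries were near 0 (-0.022 to 0.052, median of other pairs -0.0013). The same-numbered library was the best match for number 4 and not for numbers 1 to 3. Among the striated muscle genes, control 4 was the highest control for 23 and knockdown 4 the highest knockdown for 28. Control 2 was the lowest control for 24, while knockdown 1 was the lowest knockdown for 17 and knockdown 2 for 15. These values do not settle whether same-numbered libraries were paired.

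Genes and lists were chosen with earlier results of these data known. The rule named every member, and up to 4 called genes with the smallest p of each further list. Some further genes of these lists were named outside this rule. Alternatives were DESeq2 1.42.0, limma-voom (limma 3.58.1), other scalings and filters, halved counts, an adjusted p under 0.01, the replicate number as a block and leaving out each library.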

Additional observations from a re-analysis of the deposited data

Results flagged for a closer look

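In groups of 4, a library was singled out where its gap to the nearest other library was over 0.829 of the group's range, which chance alone does for about 1 group in 20. Knockdown 4 met this among the knockdowns for Tnnc1 (6.26 CPM, nearest 4.52), Lmod2 (0.744 CPM, nearest 0.317), Pln (1.65 CPM, nearest 0.485) and Ryr2 (1.98 CPM, nearest 0.613), each time as the highest. Control 4 met it among the controls for Trdn (1.85 CPM, nearest 1.28) and Nppb (1.15 CPM, nearest 0.516), again as the highest. In all, 6 of 110 groups met it.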

How the results depend on the processing

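The 36 decreases numbered 34 to 36 with other scalings, DESeq2, limma-voom, no filter, the replicate block, halved counts, an adjusted p under 0.01 or any library left out. They numbered 31 with a filter of 1 CPM in 4 libraries, which tests 34 of the genes and which controls alone can meet. Halved counts tested 37 of the 39 genes. Over all genes tested, the share called lower ran from 14.8% (no filter) to 29.2% (1 CPM filter) across these settings. Limma-voom called 0 of the 39 genes higher (1 at an unadjusted p under 0.05, and 1 by DESeq2), Acta1 being lost. No scaling turned a direction, total counts included (median of all genes 0.12 in place of 0.02). Without knockdown 4, 9 genes fell by over 1.5 times more (Myh6, Myom2, Myoz2, Xirp1, Xirp2, Pln, Casq2, Mb and Nppa), the list's median became -2.77 and the median r of deviations 0.391, a setting chosen after seeing the data. Leaving out single libraries, Cmya5 ran from -0.027 (without knockdown 4) to 0.30 and Txlnb from -0.065 (without control 1) to 0.14, none past the threshold. Nppb moved to -3.80 without knockdown 1 and -3.79 with limma-voom. With the replicate block (sign flips over 4 same-numbered pairs, smallest possible p = 0.125) the differences of Myh7 to Myh6 (-2.63), Actc1 to Acta1 (-4.55), Tnnt2 to Tnnt1 (-1.17), Des to Actc1 (2.34) and Ttn to Actc1 (0.45) had exact p = 0.125. The block changed no call of a member in edgeR. Leaving out single libraries gave -3.22 to -2.12, -5.23 to -3.92, -1.31 to -0.92, 2.10 to 2.56 and 0.34 to 0.52 for these 5 ratios. Myh7 to Myh6, Actc1 to Acta1 and Ttn to Actc1 lost their call (exact p = 0.0571) without any 1 control and Tnnt2 to Tnnt1 without knockdown 2, while Des to Actc1 lost none. The ranges were -0.25 to 0.81 for Tnni3 to Tnni1 (below 0 without knockdown 4), 0.25 to 0.76 for Myl7 to Myl2 and 0.47 to 2.21 for Nppa to Nppb. Without knockdown 3 for Myl7 to Myl2 and without knockdown 1 for Nppa to Nppb, the exact p was 0.0286. It is unadjusted and the lowest that 3 and 4 libraries allow. Genes under about 30 reads per library, such as Tnnt1 and Nppb, are limited by depth.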

Other observations

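The pattern of the fast skeletal genes was looked for in the whole table after their values were seen. Genes with at most 5 reads in each control and in knockdown 1, and at least 15 reads in each of knockdowns 2 to 4, numbered 8. They were the skeletal genes Myh8, Tnnt3, Myh1 and Tnni2 and 4 genes known from stratified epithelia, Krt4, Krt5, Krt15 and Lgals7. Krt4 held 0 reads in every control and 2, 82, 74 and 92 in the knockdowns. Krt5 held 1 to 4 reads per control and 0, 61, 47 and 23 in the knockdowns, and Lgals7 held 0 in every control and 2, 60, 48 and 32. With knockdown 2 in the place of knockdown 1, 1 gene met the same limits, and with knockdown 3 or 4 there, 0 genes did. No cause of this pattern was tested.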
